A study of Mus musculus with 6 samples.

Results

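The comparison described here set tau microglia with human APOE4 against tau microglia with no Apoe, with TREM2 present on both sides. It used the library labelled P301S/E4/TREM2+ and the library labelled P301S/EKO/TREM2+, called below the APOE4 library and the Apoe-null library. Nuclei were kept when they had at least 200 detected genes, 5% or fewer UMIs (unique molecular identifiers, each one counted RNA molecule) from mitochondrial genes, and fewer than 3 UMIs summed over the border-associated macrophage genes F13a1, Mrc1, Cd163, Cd209f and Cbr2. This kept 6049 of 6267 deposited nuclei in the APOE4 library and 3530 of 3723 in the Apoe-null library, 9579 of the 30879 nuclei kept over all 6 libraries of the series. Both libraries carry the P301S human tau transgene, a model of tau aggregation and neurodegeneration, and both keep Trem2. They differ at the Apoe locus, which holds human APOE4 (E4) or no Apoe (EKO). The study measured hippocampal nuclei of mice aged 9.5 months, sorted on the myeloid factor PU.1 and profiled as single nuclei with 10x Genomics v3.1 chemistry. It had 6 genotypes in all, the others being E4/TREM2+ without tau and the same 3 backgrounds with TREM2 deleted (TREM2-). Each genotype was 1 library made from a pool of 3 mice, so the pair has 1 library a side and no test. The intervals given with its ratios cover counting error only, and variation between mice was not measured.

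APOE is the main lipid-carrying apolipoprotein of the brain, where astrocytes make most of it and activated microglia also make it, and the E4 form is the strongest common genetic risk factor for late-onset Alzheimer's disease. TREM2 is a microglial surface receptor for lipids and lipoproteins, APOE among them, that signals through the adaptor TYROBP. In mouse models of amyloid and tau disease, microglia leave a homeostatic state marked by genes such as P2ry12 and Tmem119 and take on a disease-associated (DAM) state. Its first stage includes Tyrobp, Ctsb and Apoe itself, and its second includes Spp1, Lpl, Itgax, Cst7 and Axl.

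The median depth per nucleus was 774 UMIs with APOE4 and 804 without Apoe, and the library totals were 5529754 and 3625785 UMIs. All 15 microglia markers had at least 100 UMIs over the pair, at a summed 20152 CPM (UMIs scaled to a library total of 1000000) with APOE4 and 22037 CPM without Apoe. Some RNA of other sources also differed between the pools. The 13 mitochondrial genes summed to 4731 CPM with APOE4 and 10167 CPM without Apoe, and the 14 neuron markers to 241 and 500 CPM. The border-associated macrophage markers that remained summed to 430 and 242 CPM, of which Ms4a7 gave 162 and 16.3 CPM. The monocyte markers summed to 100 and 35.3 CPM. Endothelial, mural and fibroblast markers summed to 99.3 and 49.1 CPM, and to 38.7 and 60.2 CPM in the corresponding libraries without TREM2. Markers of T and NK cells were at 0.543 and 2.48 CPM, with 5 of the 12 at 0 in both libraries. Astrocyte markers were at 759 and 710 CPM. The part of these differences in the results below was not tested beyond the values given beside them. The libraries shared 8 cell barcodes, 0.215% of the smaller one, within the range of 5 to 13 over all library pairs. Y-linked Ddx3y had 1667 and 1090 UMIs and Xist 4 and 2. Mapt, the mouse tau gene, had 193 and 161 UMIs. The promoter of the tau transgene is not given in the sources used here.

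Apoe RNA was near background without Apoe and abundant with APOE4. It was at 1177 CPM with APOE4 and 13.5 CPM without Apoe. The other libraries had 128 CPM in E4/TREM2+, 784 CPM in P301S/E4/TREM2-, 8.65 CPM in P301S/EKO/TREM2- and 135 CPM in E4/TREM2-. The 4 libraries with an APOE4 allele were thus above both libraries without Apoe, and the 2 with tau as well as APOE4 were the highest. The log2 ratio of the pair was 6.44 (95% counting interval 6.04 to 6.88), which checks the labels. The deposited features name the mouse gene (ENSMUSG00000002985, GRCm38 chr7:19696109-19699188, minus strand), and how fully reads of the human transcript were counted there was not tested. Trem2 was at 1127 and 987 CPM in the pair, a log2 ratio of 0.19 (0.13 to 0.25).

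Across the transcriptome, few genes differed by a large amount. Of 9012 genes with at least 100 UMIs over both libraries, 131 were above 2-fold with APOE4 (1.45%) and 89 were below 2-fold (0.988%), or 2.44% either way, with a median log2 ratio of -0.04. The genes above 2-fold were led by Apoe and by genes of activated, lipid-handling and matrix-remodelling macrophages. Those below included homeostatic microglial genes, neuronal genes and all 13 mitochondrial genes. To add a test, an additive model (edgeR's quasi-likelihood test, with Benjamini-Hochberg adjustment over 12403 genes) was fitted to all 6 libraries with terms for background and TREM2 genotype. It averages the pair with the same contrast in the TREM2- libraries, so it is not a test of the pair alone. Its residual, with 2 degrees of freedom, is the departure of the 6 libraries from additive effects of background and TREM2 genotype. With 1 pool per genotype, that departure cannot be told apart from variation between pools. The p-values and SE of the fit therefore do not measure variation between mice or between pools of the same genotype. In it 233 genes were higher with APOE4 (1.88%) and 236 lower (1.9%), 3.78% in all, at an adjusted p of 0.05 or less. Of the 131 genes above 2-fold in the pair, 84 were called higher in this fit, and of the 89 below 2-fold, 56 were called lower. Of 84 named genes called, 30 were no longer called without P301S/EKO/TREM2- and 20 without P301S/EKO/TREM2+. In what follows, rose and fell refer to calls of this fit, and ratios refer to the pair.

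**Figure D1:**
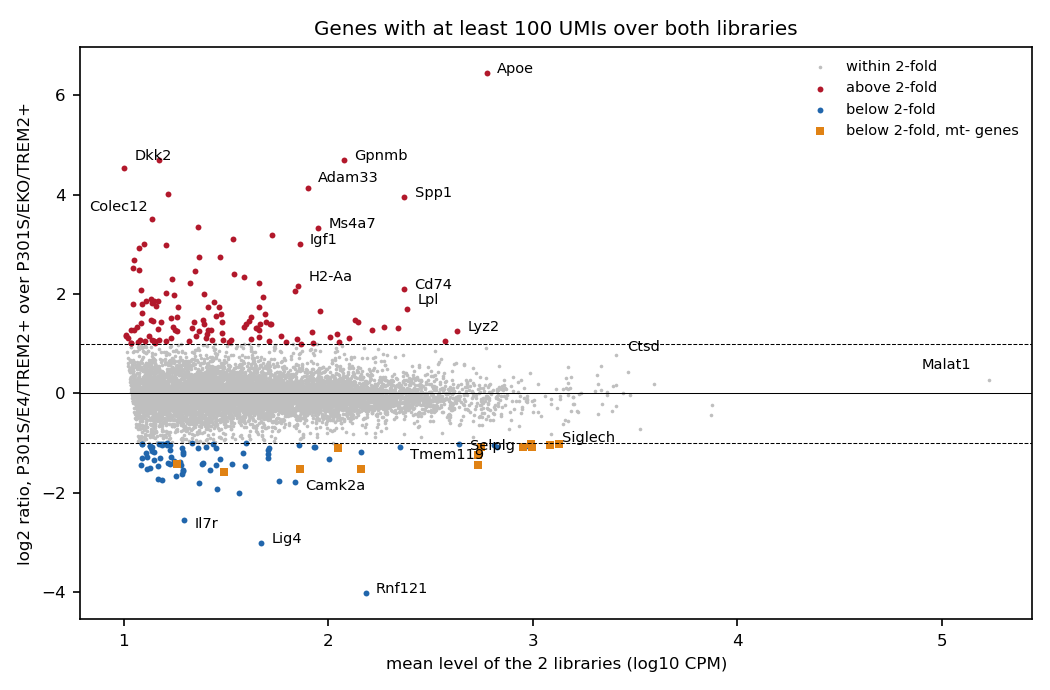
Log2 ratio of P301S/E4/TREM2+ over P301S/EKO/TREM2+ against the mean level of the 2 libraries (log10 CPM) for genes with at least 100 UMIs, one point per gene, with dashed lines at 2-fold. Apoe stands highest at 6.44, Gpnmb and Spp1 are at 4.70 and 3.95, and Rnf121 is lowest at -4.02; the mitochondrial genes (squares) lie just below the lower line.

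The second-stage DAM genes were higher with APOE4 in nearly every case. Of 29 listed genes, 28 had at least 100 UMIs, 15 of these were above 2-fold against 1.45% of all genes, and 27 were above 0 against 44.6% of all genes. Their median log2 ratio was 1.03, and 17 of the 27 that were fitted rose while 0 fell. Clec7a was not analysed here.

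Gpnmb encodes a lysosomal and surface glycoprotein of lipid-laden macrophages. It was at 229 CPM with APOE4 and 8.83 CPM without Apoe. The remaining libraries had 0 in E4/TREM2+, 304 CPM in P301S/E4/TREM2-, 1.28 CPM in P301S/EKO/TREM2- and 0.787 CPM in E4/TREM2-. Gpnmb was thus high where tau and APOE4 came together, and every other library was below 10 CPM. The pair's ratio was 26.0-fold, a log2 ratio of 4.70 (4.19 to 5.25), and Gpnmb rose by 5.67 ± 0.41 (SE) in the additive fit (edgeR adjusted p 6e-05).

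Spp1 encodes the secreted matrix protein osteopontin. It was at 442 CPM with APOE4 and 28.7 CPM without Apoe, against 4.39 CPM in E4/TREM2+. In the libraries without TREM2 it was at 93.4 CPM in P301S/E4/TREM2-, 7.37 CPM in P301S/EKO/TREM2- and 0.262 CPM in E4/TREM2-. Spp1 was therefore highest in the tau library that had both APOE4 and TREM2. The ratio of the pair was 15.4-fold, a log2 ratio of 3.95 (3.66 to 4.24), and Spp1 rose in the additive fit by 3.89 ± 0.20 (edgeR adjusted p 2.8e-06).

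Igf1, a secreted growth factor, was at 129 CPM with APOE4 and 16.0 CPM without Apoe, a log2 ratio of 3.01 (2.62 to 3.42). Lpl, the lipase that frees fatty acids from lipoproteins, was at 372 and 114 CPM, with 11.7 CPM in E4/TREM2+. Its log2 ratio was 1.70 (1.55 to 1.86), so the Apoe-null library already stood well above the library without tau. The same order held for Cst7, an inhibitor of lysosomal proteases, at 138 and 43.6 CPM against 1.46 CPM in E4/TREM2+. Itgax, the CD11c integrin, was at 116 and 49.6 CPM against 5.27 CPM, and the colony-stimulating factor Csf1 was at 232 and 96.3 CPM against 10.5 CPM. Igf1, Lpl, Cst7, Itgax and Csf1 all rose in the additive fit, with edgeR adjusted p from 0.00055 for Lpl to 0.022 for Itgax. Itgax was not called with edgeR when P301S/E4/TREM2+ or P301S/EKO/TREM2+ was left out.

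Not every second-stage gene took part to the same degree. Axl, a receptor for apoptotic cells, was at 143 and 76.1 CPM, a log2 ratio of 0.91 (0.71 to 1.11), smaller than the 2.19 of the same contrast without TREM2. Cd9 had a log2 ratio of 0.23 (0.16 to 0.29), the lysosomal glucuronidase gene Gusb 0.01, and the adhesion gene Cadm1 -0.20 (-0.32 to -0.07). Dkk2, a secreted Wnt inhibitor, had 106 UMIs with APOE4 and 3 without Apoe, a ratio of 23.2-fold (7.72 to 114). It had no UMI in E4/TREM2+ and was at 0.893 CPM in P301S/E4/TREM2-. First-stage DAM genes moved less, with all 8 above 0, a median of 0.41, 1 above 2-fold (Lyz2, at 601 and 252 CPM) and 3 that rose.

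**Figure D2:**
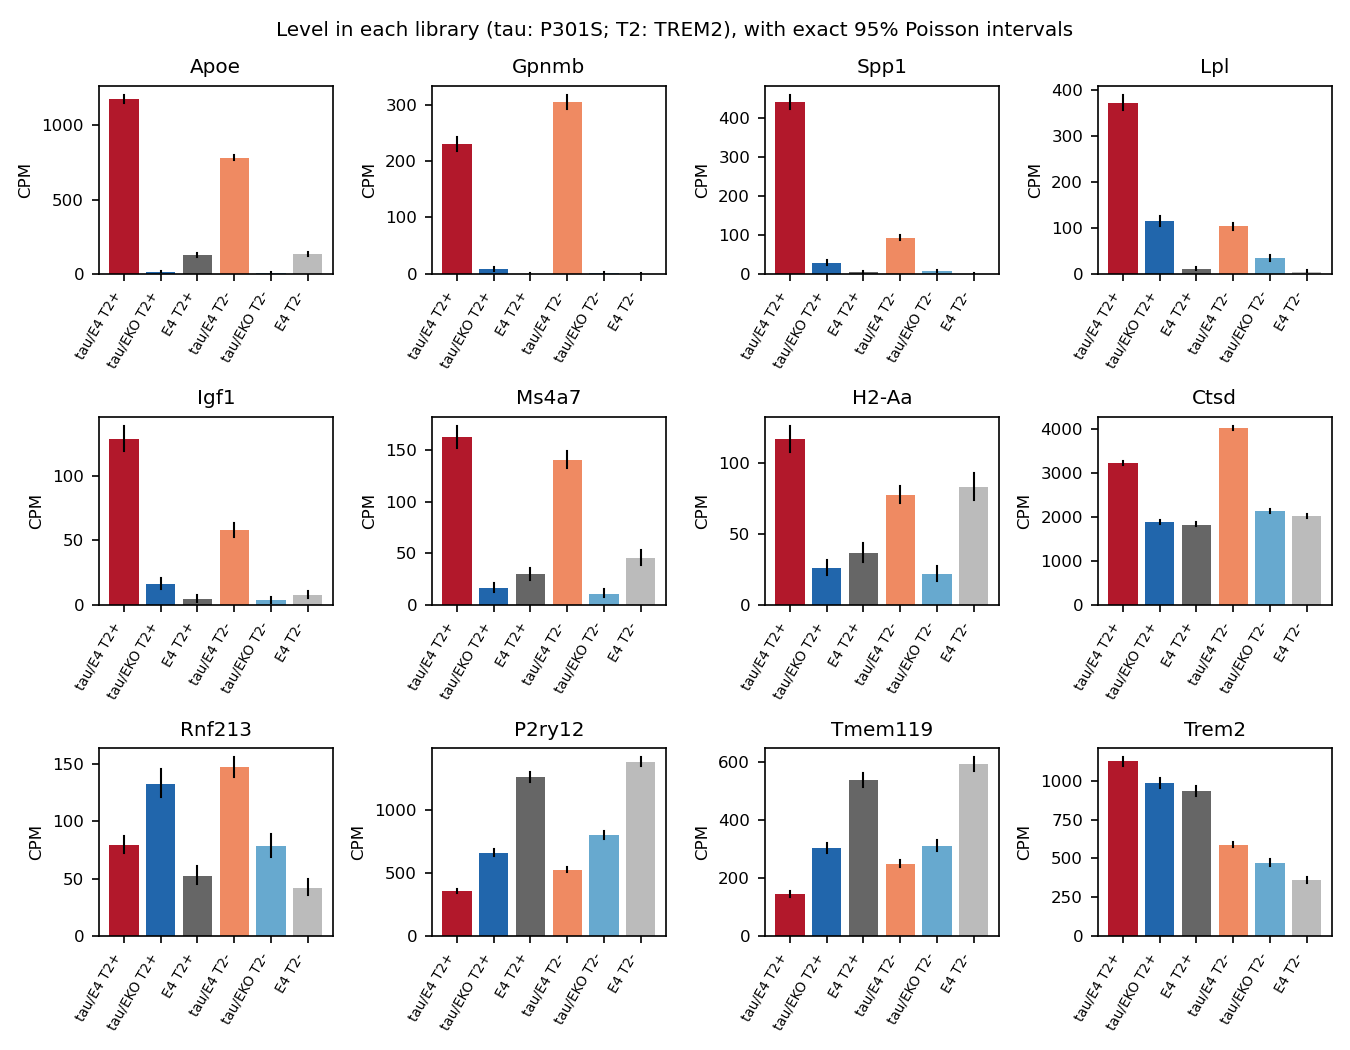
Level of 12 genes (CPM) in each of the 6 libraries as bars, with exact 95% Poisson intervals that cover counting error only; tau marks P301S and T2 marks TREM2. Gpnmb, Spp1, Igf1 and Ms4a7 are high in both tau libraries with APOE4, Lpl and Ctsd also stand above E4/TREM2+ there, and P2ry12 and Tmem119 are lowest in P301S/E4/TREM2+.

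The promoters of 3 of these genes are shown because Gpnmb and Spp1 are second-stage genes described above and Ctsd is the lysosomal protease described below. They are the 250 bases upstream of a RefSeq start (GRCm38.p6), 5′ to 3′ on the strand of the gene. Capitals mark CACGTG, the E-box read by the lysosomal MiT factors, or the interferon-stimulated element (ISRE) core, which is a GAAA pair with any 2 bases between, on either strand. Gpnmb is at chr6:49036268-49036517 (plus strand), Spp1 at chr5:104434861-104435110 (plus) and Ctsd at chr7:142387828-142388077 (minus).
Gpnmb: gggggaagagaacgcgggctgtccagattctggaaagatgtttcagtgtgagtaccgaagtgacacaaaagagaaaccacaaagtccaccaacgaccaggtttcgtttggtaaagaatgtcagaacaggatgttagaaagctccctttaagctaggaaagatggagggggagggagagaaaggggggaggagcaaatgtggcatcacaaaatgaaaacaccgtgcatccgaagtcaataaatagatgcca
Spp1: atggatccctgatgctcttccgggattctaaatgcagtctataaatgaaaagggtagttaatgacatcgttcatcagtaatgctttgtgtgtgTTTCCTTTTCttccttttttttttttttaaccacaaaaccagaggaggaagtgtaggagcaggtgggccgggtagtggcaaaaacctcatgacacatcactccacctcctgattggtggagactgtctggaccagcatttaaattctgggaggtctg
Ctsd: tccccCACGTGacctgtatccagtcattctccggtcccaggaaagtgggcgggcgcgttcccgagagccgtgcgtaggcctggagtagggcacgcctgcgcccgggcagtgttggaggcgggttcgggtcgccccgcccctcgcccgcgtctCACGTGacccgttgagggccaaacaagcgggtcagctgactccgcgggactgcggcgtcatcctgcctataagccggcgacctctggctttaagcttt
The Gpnmb window held neither CACGTG nor the ISRE core, and also no M-box (TCATGTG) and no LXR-type direct repeat. The Spp1 window held 1 ISRE core on the reverse strand, and the Ctsd window held 2 CACGTG. The window of another Spp1 start, at chr5:104435942-104436191 and not shown, held none of these motifs. Among the genes above 2-fold, 101 of 131 matched a promoter, and 6 of these (5.94%) held CACGTG. The share was 10.7% among the 7021 matched genes with at least 100 UMIs and 6.02% over all 32851 promoters in the table. The ISRE core was in 4 of the 101 (3.96%) and in 3.39% of the 7021, and TCATGTG in 1 (0.99%) and in 2.15%. A match is a description of the letters, not of binding.

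Genes of matrix, adhesion and cell surface remodelling were higher in part. Of 19 list members with at least 100 UMIs, 6 were above 2-fold and 1 below, against 1.45% and 0.988% of all genes. The median log2 ratio was 0.42, and 9 of 26 fitted members rose, against 1.88% of all fitted genes, while 1 fell. Spp1 and Itgax, both above 2-fold, are also second-stage DAM genes. Adam33, a membrane metalloprotease, was at 149.9 CPM with APOE4 and 8.55 CPM without Apoe. It was at 16.7 CPM in E4/TREM2+, 136 CPM in P301S/E4/TREM2-, 6.41 CPM in P301S/EKO/TREM2- and 13.6 CPM in E4/TREM2-. Its log2 ratio was 4.13 (3.62 to 4.70), and it was 3.16 without nuclei holding a Gpnmb UMI. Adam8, another metalloprotease, was at 28.6 and 3.59 CPM, and Sh3pxd2b, a scaffold of invadopodia, at 51.5 and 7.72 CPM. The integrin gene Itga4 was at 28.4 and 8.55 CPM, whereas Itga9 was lower, at 7.05 and 17.4 CPM, and fell in the additive fit. Itga4 is also a member of the monocyte marker list, whose sums of 100 and 35.3 CPM include it. The large structural genes Myof and Ahnak2 had log2 ratios of 3.51 and 3.19, and the filament gene Vim was at 61.3 and 7.17 CPM. The log2 ratio of Vim was 2.06 without nuclei holding a Gpnmb UMI. Neither Itga9 without P301S/EKO/TREM2- nor Vim without P301S/EKO/TREM2+ was called.

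Ms4a7 and Ms4a14, neighbouring members of the tetraspanning MS4A family, had log2 ratios of 3.32 and 3.34. Ms4a7 was at 162 CPM in P301S/E4/TREM2+, 16.3 CPM in P301S/EKO/TREM2+, 29.6 CPM in E4/TREM2+, 141 CPM in P301S/E4/TREM2-, 10.9 CPM in P301S/EKO/TREM2- and 45.7 CPM in E4/TREM2-. Ms4a7 is also a marker of border-associated macrophages. The summed markers of those cells were higher with APOE4 (430 against 242 CPM), but that sum includes the 162 and 16.3 CPM of Ms4a7 itself. With nuclei that met the macrophage rule put back its log2 ratio was 2.38 in place of 3.32, and with 0 UMIs allowed over the 5 macrophage genes it was 3.83. Mrc1, one of those defining genes, was at 14.5 and 7.17 CPM. Both Ms4a genes rose in the additive fit, with edgeR adjusted p of 6e-05 and 7.8e-05. Genes of such families can share reads with near copies, and how these were split is uncertain.

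Lipid storage and cholesterol efflux genes were higher as a group, and cholesterol synthesis genes were not. Of 19 lipid members with at least 100 UMIs, 5 were above 2-fold against 1.45% of all genes, and 16 above 0 against 44.6%. The median log2 ratio was 0.54, and 12 of 25 fitted members rose, against 1.88% of all fitted genes, while 0 fell. Among those above 2-fold, Ch25h and Fabp5 are also second-stage DAM genes. Colec12 was at 4.00 with TREM2 but -1.91 without it, and was not called. The cholesterol exporter Abca1 was at 813 CPM with APOE4 and 558 CPM without Apoe. It was at 436 CPM in E4/TREM2+, 1042 CPM in P301S/E4/TREM2-, 469 CPM in P301S/EKO/TREM2- and 354 CPM in E4/TREM2-. Both tau libraries with APOE4 were therefore above the other 4. Abcg1, the second exporter, had a log2 ratio of 0.49 (0.33 to 0.65).

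The lipid droplet coat gene Plin2 was at 57.1 and 21.8 CPM, and Fabp5, a fatty acid carrier, at 72.5 and 26.8 CPM, a log2 ratio of 1.44 (1.12 to 1.77). Soat1, which esterifies cholesterol for storage, was at 229 and 145 CPM. Lipa and Nceh1, which hydrolyse those esters, were at 83.4 against 55.2 CPM and 71.4 against 37.2 CPM. Ch25h, which makes 25-hydroxycholesterol, was at 39.6 and 11.9 CPM. The motor Myo5a was at 269 and 106 CPM. The scavenger receptor Msr1 had 78 and 7 UMIs and the apolipoprotein Apoc1 81 and 10. All of these genes, Abca1 and Abcg1 included, rose, though without P301S/EKO/TREM2- the calls of Abca1, Abcg1, Soat1, Lipa, Nceh1 and Apoc1 were lost, and without P301S/EKO/TREM2+ those of Ch25h and Apoc1. The call of Ch25h was also lost without P301S/E4/TREM2+. The 8 cholesterol synthesis genes with enough UMIs had a median of -0.04, with 0 past 2-fold and 0 of 20 fitted genes called.

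Apoc1 is also a chromosome 7 neighbour of Apoe. Within 1 Mb of Apoe lay 97 other genes, of which 22 had at least 100 UMIs, and 0 of these were past 2-fold. Their log2 ratios ran from -0.51 to 0.67 with a median of 0.05, and Apoc1 was the 1 gene there that the additive fit called. Among 7 receptors and uptake genes for APOE with at least 100 UMIs, 0 were past 2-fold and 0 of 10 fitted were called. Lrp1, the large endocytic APOE receptor, had a log2 ratio of -0.28 (-0.34 to -0.21), and the sorting receptor Sorl1 0.42 (0.15 to 0.69).

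Lysosomal genes were moderately higher in part, while their summed level was nearly equal, at 26150 CPM with APOE4 and 25578 CPM without Apoe. Of 39 with at least 100 UMIs, 30 were above 0 against 44.6% of all genes, and 5 above 2-fold against 1.45%. Among those above 2-fold, Gpnmb, Cst7, Cd63 and Atp6v0d2 are also second-stage DAM genes. The median was 0.27, and 12 of 41 fitted rose, against 1.88% of all fitted genes, while 1 fell. The protease Ctsd was at 3238 CPM with APOE4 and 1893 CPM without Apoe, with 1831 CPM in E4/TREM2+, 4029 CPM in P301S/E4/TREM2-, 2138 CPM in P301S/EKO/TREM2- and 2019 CPM in E4/TREM2-. The 2 tau libraries with APOE4 were thus above all others. Ctsb was at 1755 and 1207 CPM, a log2 ratio of 0.54 (0.49 to 0.59). The glycolipid hydrolase Galc had a log2 ratio of 1.02, and the proton pump subunit Atp6v0d2 was at 19.0 and 3.31 CPM. Cathepsin S (Ctss) was at a log2 ratio of -0.21, and the abundant protease inhibitor Cst3, at 6362 and 8580.2 CPM, fell in the additive fit by 0.60 ± 0.14 (edgeR adjusted p 0.041). The calls of Ctsd, Ctsb and Cst3 were lost without P301S/EKO/TREM2-, those of Galc and Cst3 without P301S/EKO/TREM2+, and that of Cst3 also without P301S/E4/TREM2-.

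MHC class II genes split. Those that encode the presenting molecule, the invariant chain and the class II transactivator were higher, and those that act on loading were not. H2-Aa was at 117 CPM with APOE4 and 25.9 CPM without Apoe, with 36.3 CPM in E4/TREM2+, 77.6 CPM in P301S/E4/TREM2-, 21.8 CPM in P301S/EKO/TREM2- and 82.9 CPM in E4/TREM2-. H2-Ab1 was at 111 and 26.5 CPM, H2-Eb1 at 76.0 and 19.9 CPM, and Cd74, the invariant chain, at 382 and 88.8 CPM. The log2 ratios of these 4 genes lay between 1.94 and 2.17, and the class II transactivator gene Ciita had 60 and 8 UMIs, a log2 ratio of 2.30 (1.23 to 3.57). All 5 rose in the additive fit, Ciita not without P301S/EKO/TREM2-. Border-associated macrophages and monocytes also express these genes, and their summed markers were higher with APOE4 too (430 against 242 CPM, and 100 against 35.3 CPM). The first of these sums includes Ms4a7 at 162 and 16.3 CPM. The part of those cells in the MHC class II values was not tested. The loading genes H2-DMa and H2-DMb1 had log2 ratios of -0.14 (-0.38 to 0.10) and 0.07 (-0.25 to 0.39), and H2-Ob, which restrains loading, -0.38 (-0.63 to -0.14). The library E4/TREM2-, without tau, also had 82.9 CPM of H2-Aa, so this gene was not low in every library without tau.

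The interferon response did not follow the DAM genes. Of 41 members with at least 100 UMIs, 0 were past 2-fold, 29 were below 0 against 55.4% of all genes, and the median log2 ratio was -0.26. Rnf213, an interferon-induced ubiquitin ligase, was at 79.4 CPM with APOE4 and 133 CPM without Apoe. It was at 52.7 CPM in E4/TREM2+, 147 CPM in P301S/E4/TREM2-, 78.2 CPM in P301S/EKO/TREM2- and 42.3 CPM in E4/TREM2-. All 4 tau libraries were thus above both libraries without tau, but within tau the APOE4 library was the lower with TREM2 and the higher without it. The log2 ratio of Rnf213 was -0.74 and that of the antiviral enzyme Rsad2 -0.80 (-1.16 to -0.44), while the DNA sensor Ifi207 was at 0.61 (0.39 to 0.84). The same list had a median of 0.66 in the TREM2- pair, and the additive fit called 1 of 48 members, Ifi207, a call lost without P301S/EKO/TREM2-. MHC class I genes were centred on 0, with a median of 0.00 over 19 genes and B2m at 509 and 507 CPM.

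Homeostatic genes were lower with APOE4. Of 27 with at least 100 UMIs, 22 were below 0 against 55.4% of all genes, and 2 were below 2-fold against 0.988%. The median was -0.37, and 7 of 31 fitted fell, against 1.9% of all fitted genes, while 0 rose. P2ry12, the ADP receptor that steers microglial processes, was at 358 CPM with APOE4 and 659 CPM without Apoe, against 1258 CPM in E4/TREM2+. Without TREM2 it was at 527 CPM in P301S/E4/TREM2-, 797 CPM in P301S/EKO/TREM2- and 1381 CPM in E4/TREM2-. In both TREM2 genotypes the order was the same, lowest in tau with APOE4 and highest without tau.

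Tmem119, a surface protein of resident microglia, was at 144 and 303 CPM, a log2 ratio of -1.08 (-1.21 to -0.94). It fell in the additive fit by 0.67 ± 0.16 (edgeR adjusted p 0.048), a call that was lost when any tau library other than P301S/E4/TREM2- was left out. Selplg, the selectin ligand, was at 291 and 585 CPM, and Siglech, a sialic acid receptor, at 896 and 1572 CPM. Both fell in the additive fit, as did P2ry12. The call of P2ry12 was lost without P301S/EKO/TREM2- and that of Siglech without P301S/EKO/TREM2+. The chemokine receptor Cx3cr1 had a log2 ratio of -0.37 (-0.41 to -0.32) and Csf1r, the survival receptor, -0.53 (-0.58 to -0.48), neither called. Fcrls, a microglial Fc receptor-like gene, was at 0.20, 1 of 5 members of the list above 0.

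**Figure D3:**
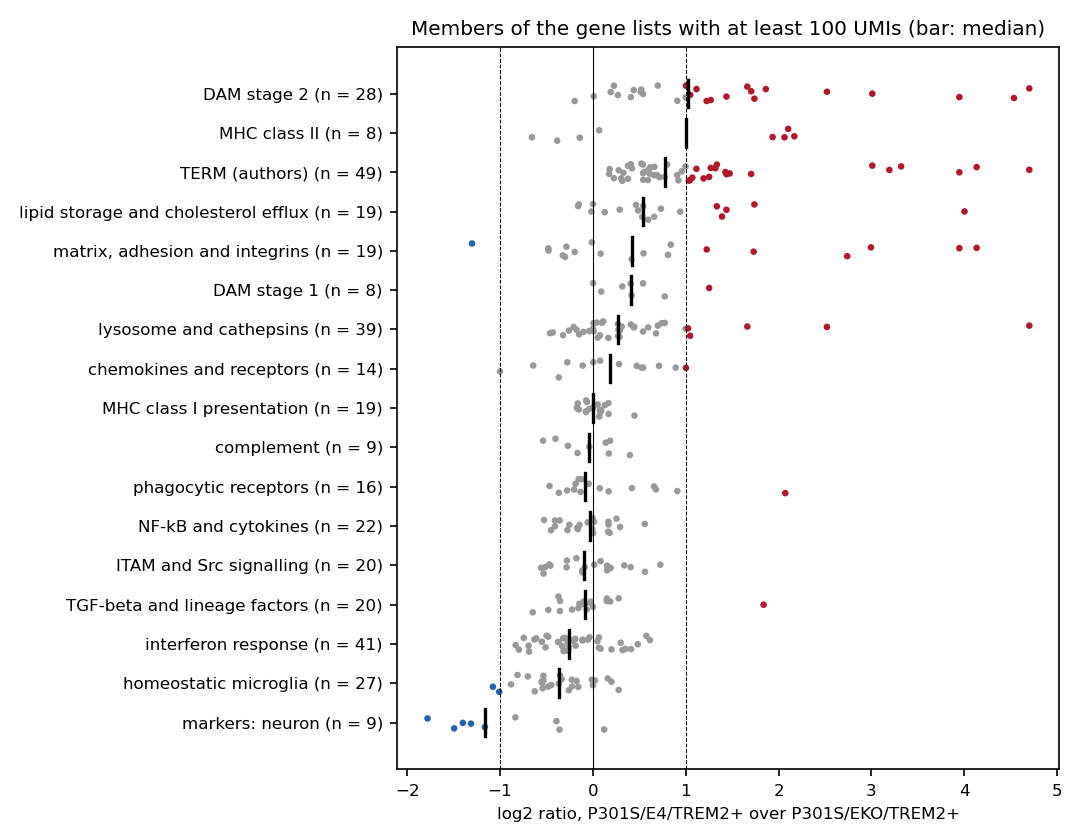
Log2 ratio of P301S/E4/TREM2+ over P301S/EKO/TREM2+ for the members of 17 gene lists with at least 100 UMIs, one point per gene, with a bar at each median and dashed lines at 2-fold. Second-stage DAM and MHC class II genes have medians of 1.03 and 1.00, most signalling lists centre near 0, and homeostatic and neuron lists lie to the left.

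Other programmes of activated myeloid cells had medians close to 0 in the pair. The medians were -0.03 for 22 NF-kB and cytokine genes, -0.04 for 9 complement genes, -0.10 for 20 ITAM and Src signalling genes, -0.08 for 16 phagocytic receptors and -0.09 for 20 TGF-beta and lineage factors. In the additive fit 5 of 18 phagocytic receptors rose and 0 fell, against 1.88% and 1.9% of all fitted genes. For ITAM and Src signalling 2 of 20 rose, and for TGF-beta and lineage factors 1 of 22, with 0 falling. For NF-kB and cytokines 1 of 25 rose and 1 fell, and for complement 1 of 12 rose and 1 fell. In the TREM2- pair the median of the phagocytic receptors was 0.43, against 0.09 over all genes. Single members stood out within these lists. Cd300lb, an activating lipid receptor, was at 19.7 and 4.69 CPM and rose. The transcription factor Bhlhe40 was at 43.4 and 12.1 CPM and rose, a call lost without P301S/EKO/TREM2+. Fgr, a Src-family kinase, was at 212 and 128 CPM and rose. The calls of Cd300lb and Fgr were lost without P301S/EKO/TREM2-, and that of Cd300lb also without either library of the pair. The 17 glycolysis genes had a median of 0.08 and the 29 nuclear oxidative phosphorylation genes -0.05, with 0 past 2-fold in either. The chemokine list had a median of 0.18 over 14 genes, the immediate early list 0.31 over 11 genes, with Atf3 at 42.1 and 14.3 CPM, and the proliferation list 0.35 over 6 genes. The authors' deposited marker table names 49 genes for TERM, their name for a microglial state. All 49 were above 0, 19 were above 2-fold, and 41 rose, but that list was chosen by its authors on these libraries and is not independent evidence of a direction.

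Several genes below 2-fold were not members of the microglial lists. Lig4, a DNA repair ligase, was at 10.3 CPM with APOE4 and 83.3 CPM without Apoe. The other libraries were at 9.37 CPM in E4/TREM2+, 8.42 CPM in P301S/E4/TREM2-, 64.4 CPM in P301S/EKO/TREM2- and 9.45 CPM in E4/TREM2-, so Lig4 was high in both Apoe-null libraries and near 10 CPM in the 4 with APOE4. It fell by 2.96 ± 0.20 (edgeR adjusted p 5.2e-05). Il7r, the interleukin-7 receptor, was at 5.79 and 33.6 CPM, and the muscle protein gene Cmya5 at 14.6 and 58.7 CPM. In E4/TREM2+ they were at 60.9 and 82.5 CPM. Il7r was at 24.0 CPM in P301S/E4/TREM2-, 46.8 CPM in P301S/EKO/TREM2- and 72.7 CPM in E4/TREM2-, and Cmya5 at 24.5, 43.6 and 81.6 CPM. Both were thus lowest in tau with APOE4 and highest without tau in each TREM2 genotype, as P2ry12 was. Both fell. Rnf121, a membrane ubiquitin ligase and the lowest ratio of the pair, was at 17.7 CPM in P301S/E4/TREM2+ but between 89.0 and 354 CPM in the other 5 libraries, so 1 library stood apart from the rest.

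Neuronal genes were among those below 2-fold. Of the 9 neuron markers with at least 100 UMIs, 5 were below 2-fold against 0.988% of all genes, and 8 below 0 against 55.4%. The median was -1.16, and 7 of 13 fitted fell, against 1.9% of all fitted genes. Camk2a, a synaptic kinase, was at 30.9 and 106 CPM. The vesicular transporter Slc17a7 was at 8.50 and 19.0 CPM and the receptor subunit Grin2b at 20.8 and 57.4 CPM. Nuclei with at least 3 neuron marker UMIs numbered 31 (0.512%) with APOE4 and 32 (0.907%) without Apoe. Without those nuclei the log2 ratio of Camk2a was -0.78 in place of -1.78 and the median of the list -0.49. Ribosomal protein genes, 76 with enough UMIs, had a median of -0.02 and 0 past 2-fold, so the mitochondrial difference (median -1.10) was not shared by them.

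Nuclei were also counted in place of UMIs. The share for a list counts all its members together, so it does not show how widely the higher genes alone were spread. The second-stage DAM list summed to 9169 CPM with APOE4 and 5986 CPM without Apoe, a log2 ratio of 0.62. It includes Trem2, at 1127 and 987 CPM. Every nucleus was thinned to 500 UMIs, which left out 0 nuclei of the pair. At least 3 UMIs of second-stage DAM genes were found in 77.4% of nuclei with APOE4 (exact 95% binomial interval 76.4 to 78.5) and in 55.0% without Apoe (53.3 to 56.6), against 33.3% in E4/TREM2+. The unthinned shares were 91.9% and 80.4%. In neuron nuclei the share was 10.9% (5 of 46 from all 6 libraries, of median depth 2262.5 UMIs before thinning). These nuclei were defined by at least 5 neuron marker UMIs and at most 1 microglia marker UMI, so low microglial RNA was selected. Of 50 such nuclei before the depth limit, 2 came from the APOE4 library and 5 from the Apoe-null library. Their shares therefore do not measure the background of the pair. In microglia nuclei the mean was 4.61 second-stage DAM UMIs with APOE4 and 3.08 without Apoe, Gpnmb counted. MHC class II UMIs were in 27.3% against 13.8% of nuclei, or 38.8% against 22.4% unthinned, and in 0 of the 46 neuron nuclei, which allows a share of up to 6.52%.

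Single genes were counted in the same way. An Apoe UMI was in 40.5% of nuclei with APOE4 and 0.538% without Apoe, with 3 of 46 neuron nuclei (6.52%). Spp1 was in 12.4% against 1.22%, Lpl in 12.7% against 4.19%, Cst7 in 6.48% against 2.01% and Itgax in 5.16% against 2.24%, each with 0 of the 46 neuron nuclei. Unthinned, Spp1 was in 18.2% against 2.07% and Lpl in 18.3% against 7.03%. The interferon list did not separate the libraries, at 20.4% and 21.4% with overlapping intervals. At least 3 homeostatic UMIs remained in 96.5% and 98.7% of nuclei, with means of 8.45 and 10.5 UMIs per nucleus, so lower homeostatic levels were not an absence of these genes from nuclei.

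**Figure D4:**
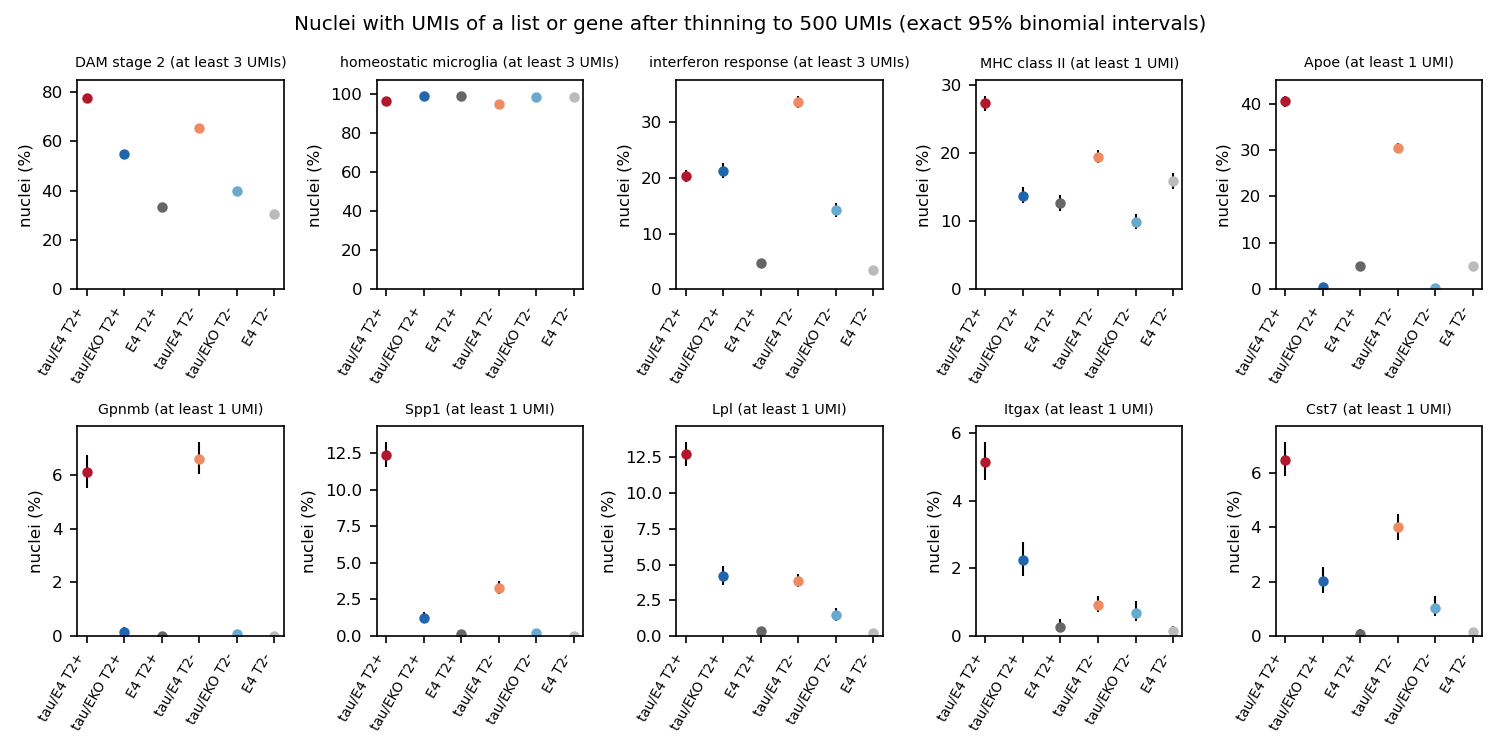
Share of nuclei (percent) with the stated number of UMIs of a list or gene after thinning to 500 UMIs, one point per library with exact 95% binomial intervals for counting error. The APOE4 and Apoe-null libraries with TREM2 (first and second points) differ for second-stage DAM genes (77.4% and 55.0%), MHC class II, Apoe, Gpnmb, Spp1, Lpl, Itgax and Cst7, and overlap for the interferon response.

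Gpnmb was found in few nuclei, and nearly all of those in the pair were in the APOE4 library. At 500 UMIs it was found in 370 of 6049 nuclei with APOE4 (6.12%, 5.53 to 6.75) and in 5 of 3530 without Apoe (0.142%), in 0 of 3468 nuclei of E4/TREM2+ and in 0 of 46 neuron nuclei. Without thinning, 550 nuclei of the APOE4 library held a Gpnmb UMI, 63 held at least 5, and 1 held 34. Nuclei of the APOE4 library with a Gpnmb UMI had a mean of 5.94 second-stage DAM UMIs. APOE4 nuclei without one had 4.42, and Apoe-null nuclei without one had 3.07. Gpnmb itself was left out of these list counts. Homeostatic UMIs ran the other way, at 6.18, 8.59 and 10.5 per nucleus, and lipid UMIs at 2.15, 1.52 and 1.14. The APOE4 nuclei without a Gpnmb UMI thus lay between the other 2 classes for these 3 lists. They did not for lysosomal UMIs (13, 13.42 and 13.38 per nucleus) or interferon UMIs (1.79, 1.69 and 1.83). With every Gpnmb nucleus left out, an alternative chosen after seeing the data, 95 genes in place of 131 were above 2-fold. The log2 ratio of Spp1 was then 3.51 and the median of the second-stage list 0.92.

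The same genotypes without TREM2 offer a side-by-side view, since P301S/E4/TREM2- and P301S/EKO/TREM2- share no library with the pair. Of the 131 genes above 2-fold with TREM2, 111 (84.7%) had a ratio above 0 without it, and of the 89 below, 76 (85.4%) were below 0. Over all 9011 genes with at least 100 UMIs and a ratio in both pairs, 58.5% were above 0 and 41.5% below 0 without TREM2. With 1 library per genotype, whether the APOE4 difference depends on TREM2 has no test, and intervals cover counting error only. For Spp1 the log2 ratios were 3.95 with TREM2 and 3.66 without, a difference of 0.28 (-0.38 to 0.94), although its level was 442 CPM with TREM2 and 93.4 CPM without. Lpl had 1.70 and 1.59, Adam33 4.13 and 4.41, and Cd63, a lysosomal tetraspanin, 1.05 and 1.09. Ratios were smaller with TREM2 for Gpnmb, at 4.70 against 7.89, a difference of -3.19 (-4.70 to -1.69), for Abca1, at 0.54 against 1.15, and for Axl. The Gpnmb ratios rest on few Apoe-null counts, 32 UMIs in 15 nuclei with TREM2 and 4 UMIs in 3 nuclei without it. Ratios were larger with TREM2 for Vim, by 2.04 (1.31 to 2.76), and for Cd74, at 2.10 against 1.40. Tmem119 was at -1.08 with TREM2 and -0.32 without, a difference of -0.76 (-0.93 to -0.59), whereas Selplg was at -1.01 and -0.97.

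**Figure D5:**
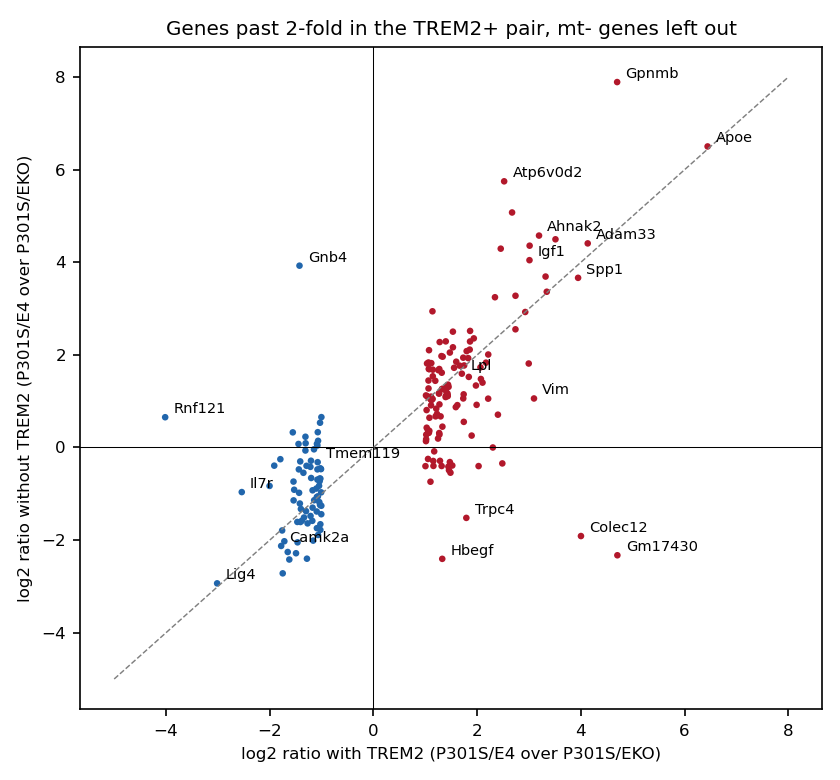
Log2 ratio of P301S/E4 over P301S/EKO without TREM2 against the same ratio with TREM2 for 206 genes past 2-fold with TREM2, one point per gene, with mitochondrial genes and genes without a ratio in both pairs left out and a dashed line of equal ratios. Apoe, Adam33, Spp1 and Lig4 lie near the line, and Gpnmb and Atp6v0d2 above it, with 4 and 1 UMIs in P301S/EKO/TREM2-. Rnf121, Gnb4, Hbegf, Colec12 and Gm17430 have opposite signs in the 2 pairs.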

How the data were processed

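The submitters deposited 1 filtered matrix of whole-number UMI counts per library, with 31053 features, made with Cell Ranger 3.0.1 per the file headers and mapped to mm10 per the submitters' processing notes. The count unit was taken as deposited, with no normalization. The authors' marker table gave only the names of the TERM genes. The sort excluded doublets per the labels' protocols, and no doublet caller was run. Counts were summed over the kept nuclei of each library (each a pool of 3 mice), scaled to CPM, and compared as a log2 ratio with an exact conditional interval at 95% for counting error. Genes with at least 100 UMIs over the pair were counted past 2-fold. The additive fit used edgeR 4.0.16 (TMM, filterByExpr, quasi-likelihood F test, 2 residual degrees of freedom), with DESeq2 1.42.0 as an alternative. The SE given with its log2 fold changes was back-calculated as the absolute log2 fold change divided by the square root of F. Gene locations came from GENCODE vM21 and promoters from RefSeq (73 of 104 named genes matched). The members and lists were chosen with earlier results of these data known. Named genes were the check genes, the 15 highest and 15 lowest ratios, the 10 largest rises and falls in CPM, for each list up to 4 genes past 2-fold each way and the one nearest its median, and genes with at least 50 UMIs in one library and 0 in the other. Other genes named were chosen after their values were seen. Alternatives changed scaling, nuclei kept, weight per nucleus, UMI minimum, thinning depth, and the test, filter and libraries of the fit.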

Additional observations from a re-analysis of the deposited data

Results flagged for a closer look

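6 genes past 2-fold in the pair and named by the rule for named genes had ratios of opposite sign in the TREM2+ and TREM2- pairs, and whether the pairs differ was not tested, since each genotype had 1 library. The values are the log2 ratio of P301S/E4 over P301S/EKO with TREM2 minus that without. Gm17430, a pseudogene inside Colec12 on the opposite strand, had 7.03 and Colec12, a scavenger receptor gene, 5.91. Colec12 was at 30.9 CPM in P301S/E4/TREM2+ and between 1.53 and 8.20 CPM in the other 5 libraries. Hbegf, a secreted growth factor, had 3.73, with 55.3 and 22.1 CPM in the pair and 12.8 and 67.6 CPM in the pair without TREM2. Rnf121 had -4.67, Tmem44 -1.88 and the chemokine Ccl6 1.41, the last with log2 ratios of 1.00 with TREM2 and -0.40 without. Gnb4, chosen after its values were seen, also had opposite signs, with -1.43 with TREM2 and 3.93 without, a difference of -5.35 (-6.29 to -4.42 by counting error).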

How the results depend on the processing

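No paired analysis was possible because each genotype had 1 library and replicate numbers name no second sample. With a minimum of 50 UMIs 208 genes were above and 199 below 2-fold, and with a minimum of 300 UMIs 56 and 32. The homeostatic median was -0.29 with TMM factors and -0.45 with a minimum of 50 UMIs. The MHC class II median was 1.98 with at least 500 detected genes, 1.63 with 1% or fewer mitochondrial UMIs and 1.94 with a minimum of 300 UMIs. The TERM median was 0.58 without nuclei holding a Gpnmb UMI. Ratios of shares (APOE4 over Apoe-null, 1.41 for second-stage DAM, 0.955 interferon, 1.98 MHC class II, 43.2 Gpnmb) were as follows: DAM 1.74 with the UMI threshold raised by 1, 1.69 at 300 UMIs, 1.11 at 1000 UMIs and 1.14 unthinned; interferon 0.865 with the raised threshold and 0.858 at 300 UMIs; MHC class II 3.61 with the raised threshold, 2.37 at 300, 1.71 at 1000 and 1.73 unthinned; Gpnmb 16.1 at 300. The additive fit called 469 genes, 275 with DESeq2, 1233 with no filter except at least 1 UMI, and between 132 (without P301S/EKO/TREM2-) and 1813 (without P301S/E4/TREM2+) with 1 library left out. Meg3, a neuronal RNA, reversed, with a log2 ratio of 2.47 without nuclei above 3 times the median UMI in place of -1.31. The cause of these changes was not tested. Of 1703 recomputed ratios of single genes, 1566 stayed within their counting interval, 136 moved and Meg3 reversed. TMM and DESeq2 factors shifted all log2 ratios by 0.07.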

Other observations

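Gh, which encodes growth hormone and is not a microglial gene, had 78 UMIs in P301S/E4/TREM2+ and 0 in P301S/EKO/TREM2+, at least 17.0-fold higher against a floor of 3 UMIs per library. It was at 0.293 CPM in E4/TREM2+ and had 0 UMIs in the 3 libraries without TREM2. Gnb4, a G protein subunit gene chosen after its values were seen, was at 18.3 CPM with APOE4 and 49.1 CPM without Apoe in the pair, with 42.4 CPM in E4/TREM2+, 53.6 CPM in P301S/E4/TREM2-, 3.52 CPM in P301S/EKO/TREM2- and 2.36 CPM in E4/TREM2-. The nuclear long noncoding RNAs Malat1 and Neat1 were both higher with APOE4, Malat1 at a log2 ratio of 0.28 and Neat1 at 777 against 410.1 CPM, and Neat1 rose in the additive fit (edgeR adjusted p 0.0013). Without TREM2, Malat1 was at -0.18 and Neat1 at 1.47. Of the retinoid X receptor genes, Rxra had a log2 ratio of 1.33 and Rxrg 1.53, and both rose, with edgeR adjusted p of 0.032 and 0.034, calls that were lost without P301S/EKO/TREM2+ or P301S/EKO/TREM2- for both, without P301S/E4/TREM2- for Rxra and without P301S/E4/TREM2+ for Rxrg.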
